A study of Mus musculus with 4 samples.

Results

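The mouse genome names many of its zinc finger genes Zfp and a number, and 360 genes of the RNA-seq tables examined here carried such a name. Of these, 242 were taken as members because their mean level over the 4 libraries was at least 5 TPM (an estimate of transcript abundance that takes account of length and has a fixed sum over each library), out of 24411 genes listed and 14512 genes tested. Zfp541, the gene deleted in the study, and Zfp36, which encodes an RNA-binding protein of another zinc finger type, were left out. The members were thus chosen by their measured level, which is described without a test. A further 79 Zfp-named genes had a mean of 1 to under 5 TPM, and 4 were listed at 0 in all libraries. Zfp729a, at a mean of 5.01 TPM, Zfp87, at 5.09 TPM, and Zfp14, at 5.10 TPM, lay just inside the limit. Zfp959, at 4.87 TPM, Zfp40, at 4.85 TPM, and Zfp119b, at 4.67 TPM, lay just outside it. Both group means reached 5 TPM in 213 members, whereas 27 members reached it only in the KO-labelled libraries and 2 only in the controls.

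Most of these genes encode C2H2 proteins, in which short loops held by a zinc ion lie side by side and read DNA. Many also begin with a KRAB box, a segment that recruits the corepressor TRIM28 (KAP1) and through it the histone methyltransferase SETDB1, HP1 proteins and deacetylases, so that the bound DNA is packed into heterochromatin. KRAB zinc finger genes lie in clusters that arose by tandem duplication, and their best known targets are retroelements and imprinted regions. In the germ line, the silencing of retroelements and the remodelling of chromatin go on through meiotic prophase.

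Testes were taken at postnatal day 18 from mice with a Rec8-3xFLAG-HA-p2A-GFP allele, and their GFP-positive cells were sorted for RNA-seq. In this knock-in, GFP is made from the locus of the meiotic cohesin gene Rec8. The controls were 2 testes heterozygous for the Zfp541 deletion (Zfp541+/-), one of them heterozygous and the other homozygous for the knock-in, and the labels do not say which library is which. The other 2 libraries were labelled Zfp541 KO, are called the KO-labelled libraries here and came from separate testes homozygous for the knock-in. The strain label reads C57BL/6 and CBA mixed for all 4, while the study's methods name C57BL/6. The study used littermates where it could and otherwise mice of like age from its colony, without naming the litters of these 4 testes, and the controls carry 1 deleted Zfp541 allele themselves. The sort takes any cell that makes GFP from Rec8, so the stages of prophase are mixed. The question put to these data was which genes depend on ZFP541, a zinc finger protein that binds histone deacetylases in spermatocytes.

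Zfp541 itself measured 112 and 72.2 TPM in the controls, against 136 and 151 TPM in the KO-labelled libraries, so the targeted transcript was not lower under that label. The per-gene value does not separate exons inside and outside the deletion, and every direction below rests on the labels. Control 2 stood apart in the macrophage and Leydig markers. Its 8 Sertoli markers summed to 729 TPM, against 835 TPM in control 1 and 1094 and 777 TPM in the KO-labelled libraries. Its 12 spermatogonial markers summed to 1176 TPM, against 509 TPM in control 1 and 1044 and 858 TPM. Its 6 macrophage markers summed to 28.7 TPM, against 2532 TPM in control 1 and 2150 and 1574 TPM in the KO-labelled libraries, and none of the 6 was at 0 there. Its 6 Leydig markers summed to 19.4 TPM, against 3603 TPM in control 1 and 392 and 606 TPM. The meiotic markers were present in all 4 libraries, with Sycp3, a component of the chromosome axis, between 1108 and 2196 TPM. All 12 leptotene and zygotene markers were tested, of which 10 lay above both controls, and their sum was 2060 and 2608 TPM in the controls, against 4141 and 4261 TPM. Of 12 tested pachytene markers, 8 lay below both controls, and their list summed to 8246 and 4884 TPM against 2360 and 3214 TPM. Most markers of both lists thus separated the libraries by their labels. The 12 spermatogonial markers had a median log2 difference of 0.11 and the 8 Sertoli markers 0.36. The 4 tested spermatid markers of 9 listed had a median of 0.01 but moved in opposite directions. Spaca1 (1.32) and Tssk6 (0.90) lay above both controls, Acr (-1.68) lay below both, and Tnp2 (-0.87) overlapped. The 5 erythroid markers had a median of 0.59, with a range from -2.71 to 3.97. In bulk RNA of sorted cells, a different mix of stages or cell types and a different level per cell cannot be told apart. The part of these marker differences in the values of the Zfp-named genes was not tested.

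The windows around the annotated starts of 6 members are shown because, among members with 1 listed start and groups that did not overlap, these genes had the largest differences (Zfp292, Zfp692 and Zfp781 higher, Zfp820 and Zfp956 lower) or have a known role in imprinting (Zfp445). Zfp57, with the second largest difference, has several listed starts and is not shown. Each runs from 250 bases before to 50 bases after the start on the strand of the gene, 5′ to 3′, as RefSeq gives it on GRCm38.p6 (the assembly of mm10), and capitals mark CG dinucleotides. The listed start of Zfp445 lies inside the span of the gene (chr9:122848910-122886851) and not at its outer end.
Zfp292 (chr4:34882899-34883198, minus strand): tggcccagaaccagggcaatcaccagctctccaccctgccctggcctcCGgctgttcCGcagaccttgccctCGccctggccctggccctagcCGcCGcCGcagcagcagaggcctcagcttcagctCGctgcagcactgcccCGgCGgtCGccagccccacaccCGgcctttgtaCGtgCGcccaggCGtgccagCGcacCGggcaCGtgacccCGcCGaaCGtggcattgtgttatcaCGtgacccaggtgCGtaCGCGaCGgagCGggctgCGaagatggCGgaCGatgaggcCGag
Zfp692 (chr11:58306819-58307118, plus strand): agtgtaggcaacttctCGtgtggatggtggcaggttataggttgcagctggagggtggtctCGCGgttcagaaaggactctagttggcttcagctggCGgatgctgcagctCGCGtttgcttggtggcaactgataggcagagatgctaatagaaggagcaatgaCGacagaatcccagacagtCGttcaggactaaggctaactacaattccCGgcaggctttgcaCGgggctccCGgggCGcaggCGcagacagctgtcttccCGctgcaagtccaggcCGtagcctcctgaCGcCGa
Zfp781 (chr10:81930463-81930762, minus strand): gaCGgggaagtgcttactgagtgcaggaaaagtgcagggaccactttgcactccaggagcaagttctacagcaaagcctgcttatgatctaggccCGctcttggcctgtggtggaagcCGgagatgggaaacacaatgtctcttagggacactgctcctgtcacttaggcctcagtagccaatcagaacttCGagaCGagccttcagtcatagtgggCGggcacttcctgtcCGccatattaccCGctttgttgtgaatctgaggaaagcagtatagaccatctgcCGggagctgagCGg
Zfp445 (chr9:122865957-122866256, minus strand): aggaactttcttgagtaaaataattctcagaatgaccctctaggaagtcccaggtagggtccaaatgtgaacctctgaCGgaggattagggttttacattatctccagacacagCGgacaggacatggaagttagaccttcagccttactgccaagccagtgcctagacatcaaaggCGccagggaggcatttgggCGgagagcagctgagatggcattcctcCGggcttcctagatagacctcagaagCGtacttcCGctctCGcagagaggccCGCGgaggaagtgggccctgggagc
Zfp820 (chr17:21845710-21846009, minus strand): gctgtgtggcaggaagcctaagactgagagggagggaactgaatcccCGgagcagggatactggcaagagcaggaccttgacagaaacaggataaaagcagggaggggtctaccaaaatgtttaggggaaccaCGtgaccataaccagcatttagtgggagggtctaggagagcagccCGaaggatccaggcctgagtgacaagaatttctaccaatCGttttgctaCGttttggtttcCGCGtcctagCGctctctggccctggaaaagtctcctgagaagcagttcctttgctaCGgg
Zfp956 (chr6:47953140-47953439, plus strand): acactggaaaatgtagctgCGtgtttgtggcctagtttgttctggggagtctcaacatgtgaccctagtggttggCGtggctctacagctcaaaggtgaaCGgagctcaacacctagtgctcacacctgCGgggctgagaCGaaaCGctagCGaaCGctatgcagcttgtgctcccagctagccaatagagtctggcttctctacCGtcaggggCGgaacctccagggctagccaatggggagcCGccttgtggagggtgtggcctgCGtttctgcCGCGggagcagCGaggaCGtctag

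These windows held 30 CG dinucleotides at Zfp292, 17 at Zfp692, 10 at Zfp781, 10 at Zfp445, 9 at Zfp820 and 16 at Zfp956, so neither the higher nor the lower genes shared a CG-rich or a CG-poor start. RefSeq windows were found for 199 of the 242 members (251 windows). The median was 17 CG dinucleotides over members and 19 over the 14493 windows of genes tested. Windows of members with a KRAB match had a median of 12, and those without a match 21. The letters ACTACA, the first part of the long element that ZFP143 binds, were present on either strand in 19.9% of the members' windows, against 10.2% of the windows of genes tested and 10.3% of all 32851 windows. Among the windows shown they occur at Zfp692. The letters CCGGAAG, a core bound by ETS factors, were in 21.9% of the members' windows, 16.4% of those of genes tested and 8.86% of all windows. CACGTG, an E-box, was in 6.37% of the members' windows, 9.90% of those of genes tested and 7.15% of all. TATAAA was in 4.78%, 7.46% and 13.6% of the same 3 sets. The GC box GGGCGG was in 51.8% of the members' windows, below the 60.0% of genes tested and above the 35.7% of all. CCAAT was in 45.0%, 38.2% and 37.4%, and ATGGCG, a core bound by YY1, in 18.3%, 14.2% and 8.93%. None of these motifs contains another. The windows of members whose KO-labelled libraries both lay above both controls held ACTACA in 18.0%, CCGGAAG in 21.7% and ATGGCG in 21.7%, which is close to the shares over all members. A match is a run of letters and not a shown binding site.

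The Zfp-named genes were mostly higher in the KO-labelled libraries, by a small amount each. The level of the median member was 14.4 TPM in control 1, 9.63 TPM in control 2, 18.1 TPM in KO-labelled library 1 and 17.7 TPM in KO-labelled library 2. Control 2 was thus the lowest of the 4. On the log2(TPM + 1) scale, which understates the change of low genes, the median difference was 0.52, with a range from -0.88 to 1.52, and 212 of 242 members had a positive value. All genes tested had a median of 0.28 in the same comparison, so the members lay 0.23 above that shift. The 10438 other genes whose mean level fell within the range of the members had a median of 0.33. Both KO-labelled libraries lay above both controls for 151 members (62.4%), against 38.6% of all genes tested and 42.7% of the genes at the members' levels. Both lay below both controls for 13 members (5.37%), against 12.1% of all genes tested, and the groups overlapped for the other 78 members. At least 2-fold differences were found in 26 members upwards (10.7%, against 8.99% of all genes tested) and in 0 downwards (against 5.22%). The share of members above both controls stood further from its background than the share at 2-fold did. Among the 213 members whose group means both reached 5 TPM, the median was 0.48, with 126 above both controls (59.2%) and 12 below.

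**Figure D1:**
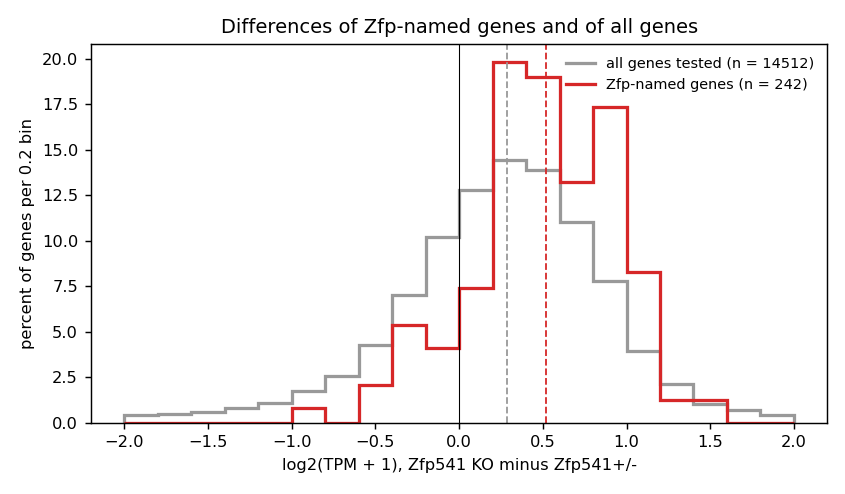
Share of genes in each bin of 0.2 (vertical axis, percent) by the difference in log2(TPM + 1) between the 2 KO-labelled libraries and the 2 Zfp541+/- libraries (horizontal axis), for 242 Zfp-named genes (red) and 14512 genes tested (grey); values beyond the axis are not drawn. The dashed lines are the medians, 0.52 and 0.28, and few members lie below 0.

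No member passed an FDR of 0.05 in limma with Benjamini-Hochberg adjustment over all 14512 genes, in either direction, and none of all genes did (background 0% in each direction). The smallest adjusted p of a member was 0.310. At an unadjusted p under 0.05, 38 members were higher (15.7%, against 10.7% of all genes tested) and 1 was lower (0.413%, against 3.73%). The one lower member was Zfp956. With 2 libraries a group, these p-values measure only the spread between 4 testes.

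The split also depended on how the libraries were scaled. After median-ratio scaling, which brought the median of all genes to -0.01, the members had a median of 0.20, with 102 members (42.1%, against 22.6% of all genes) above both controls and 30 (12.4%, against 22.8%) below. After quantile normalization 122 members (50.4%, against 27.8%) lay above and 24 (9.92%, against 19.4%) below. After each library was corrected for transcript length, the members had a median of 0.17 beside 0.02 for all genes, with 97 (40.1%, against 23.1%) above and 37 (15.3%, against 21.1%) below. The members' median stayed positive and above that of all genes under each of these scalings.

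The size of the difference depended on which control was used. Members had a median difference of 0.27 and 0.29 from control 1, for the KO-labelled libraries 1 and 2, and of 0.80 and 0.80 from control 2. All genes tested had 0.17 and 0.13 from control 1 and 0.45 and 0.43 from control 2. The controls themselves differed, as 200 of 242 members were lower in control 2 than in control 1 (82.6%, against 66.0% of all genes tested). The median absolute gap between the 2 controls was 0.53 over members, whereas it was 0.11 between the KO-labelled libraries, and the same gaps over all genes tested were 0.65 and 0.16. Without control 2, the library that had almost no macrophage and Leydig transcripts, the members' median was 0.27 against 0.15 for all genes, with 159 members (65.7%, against 52.9% of all genes) higher and 62 (25.6%, against 36.0%) lower in both libraries. In that fit, which assumes that the lone control varies like the other group, 38 members on the higher side (15.7%, against 15.5% of all genes) and 9 on the lower side (3.72%, against 12.9%) passed an FDR of 0.05 in limma. Without control 1 the median was 0.79 against 0.44, and 148 members on the higher side (61.2%, against 38.7% of all genes) and 3 on the lower side (1.24%, against 9.47%) passed the same FDR.

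**Figure D2:**
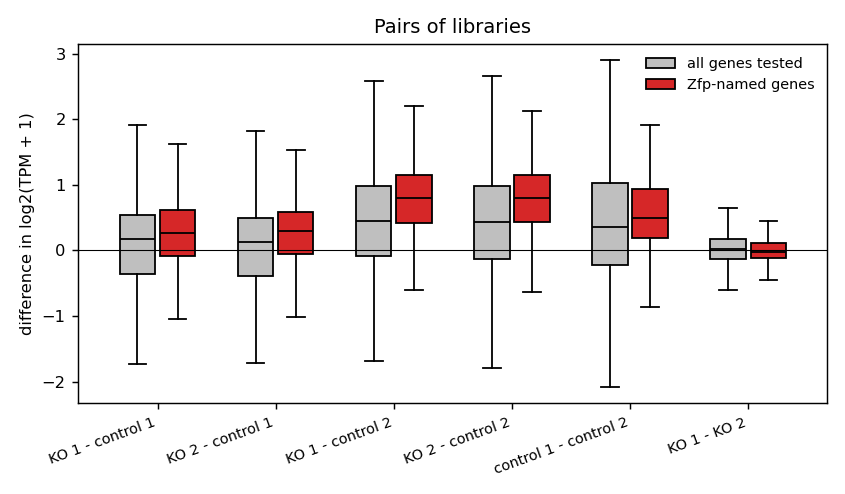
Differences in log2(TPM + 1) between pairs of libraries (boxes: quartiles and median; whiskers: 1.5 times the box; points beyond are not drawn) for all genes tested (grey) and 242 Zfp-named genes (red). Members lie about 0.80 above control 2 and 0.27 to 0.29 above control 1, the controls differ by a median of 0.49, and the KO-labelled libraries by -0.02.

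Control 2 was far lower than control 1 in a few members. Zfp871 measured 9.04 and 1.67 TPM in the controls, against 11.3 and 9.47 TPM in the KO-labelled libraries. Zfp608 was at 23.0 and 4.26 TPM against 6.72 and 10.3 TPM. Zfp950 was at 13.1 and 3.57 TPM against 9.86 and 13.01 TPM, and Zfp955b at 31.2 and 9.14 TPM against 25.2 and 32.01 TPM. The KO-labelled libraries lay just above both controls for Zfp871 and overlapped them for the other 3, and in all 4 genes the controls were further apart than the group means.

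Zfp292, which encodes a large protein of 14 counted fingers, had the largest difference. It measured 11.9 and 8.25 TPM in the controls, against 31.1 and 29.6 TPM in the KO-labelled libraries, a log2 difference of 1.52 (SE 0.31, adjusted p = 0.310 in limma). Both KO-labelled libraries were more than 2-fold above either control. Zfp692 was at 20.2 and 17.04 TPM against 48.7 and 53.7 TPM, a log2 difference of 1.41 (SE 0.24), and had the smallest unadjusted p of the members, 0.00316 in limma. Zfp781 was at 8.44 and 5.70 TPM against 20.6 and 18.8 TPM. For each of these genes the gap between the controls was smaller than the gap between the groups.

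Zfp68 measured 11.3 and 8.25 TPM in the controls, against 23.1 and 24.3 TPM in the KO-labelled libraries. Zfp280b was at 19.6 and 15.1 TPM against 42.7 and 37.3 TPM. Zfp235 was at 3.52 and 3.00 TPM against 7.64 and 9.88 TPM, so that it reached the level limit only through the KO-labelled libraries. Zfp936, a KRAB gene of a cluster on chromosome 7, was at 7.38 and 3.23 TPM against 11.5 and 13.2 TPM. None of these 4 had overlapping groups, and their log2 differences were 1.21, 1.17, 1.19 and 1.162.

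Members on the lower side were fewer and differed less. Zfp956 measured 109 and 68.4 TPM in the controls, against 44.9 and 49.7 TPM in the KO-labelled libraries, a log2 difference of -0.86 (SE 0.29, adjusted p = 0.331 in limma). Zfp820 was at 31.4 and 9.78 TPM against 8.78 and 9.58 TPM, so its difference of -0.88 rested on control 1, and control 2 lay close to the other libraries. Zfp428 was at 29.5 and 48.1 TPM against 26.2 and 26.2 TPM. The other 10 members below both controls had differences between -0.44 and -0.18. Zfp688 was at 19.7 and 26.4 TPM against 14.9 and 18.2 TPM, and Zfp511 at 39.0 and 35.3 TPM against 24.9 and 30.0 TPM. Zfp358 had a log2 difference of -0.38, Zfp784 -0.34, Zfp184 -0.30, Zfp821 -0.22 and Zfp251 -0.22, each with groups that did not overlap.

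**Figure D3:**
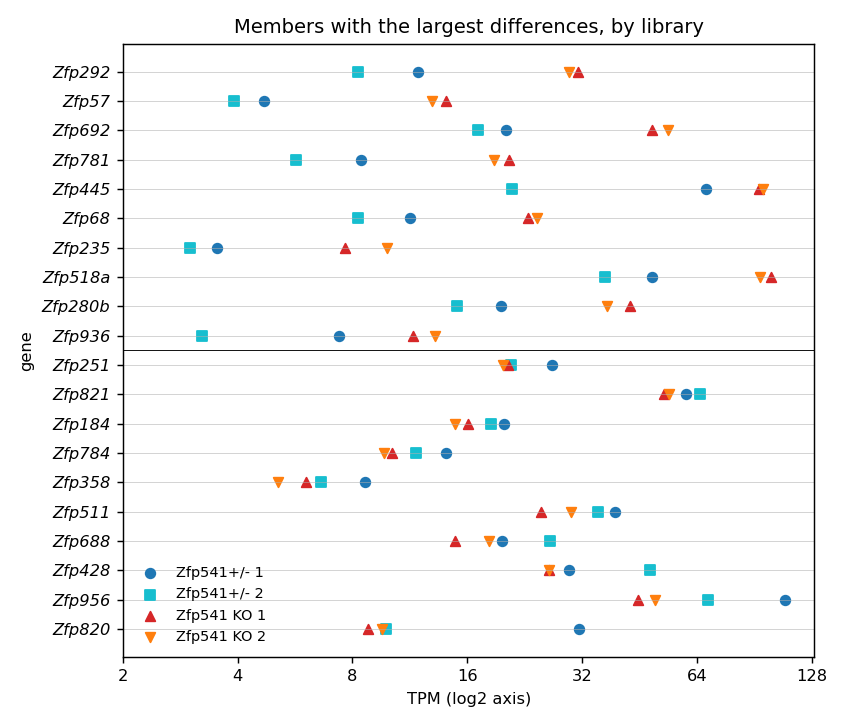
TPM of each library (log2 axis) for the 10 members with the largest positive and the 10 with the largest negative difference among those whose groups do not overlap (separated by the line), with 2 Zfp541+/- libraries (circles, squares) and 2 KO-labelled libraries (triangles). Zfp292 shows 11.9 and 8.25 TPM against 31.1 and 29.6 TPM, while Zfp445 and Zfp820 show controls far apart.

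Among the KRAB repressors with well studied targets, those that passed the level limit were all on the higher side. Of 8 listed genes, 6 were members, and their median log2 difference was 0.93. All 6 lay above both controls, beside 62.4% of members and 38.6% of all genes tested. A gene can pass the level limit through high KO-labelled libraries alone, as Zfp57 did, so this count is only a description. Zfp708 and Zfp819 were below the level limit, so these values do not cover the whole list. Zfp57, which keeps DNA methylation on imprinted regions, measured 4.70 and 3.91 TPM in the controls, against 14.03 and 12.95 TPM in the KO-labelled libraries, a log2 difference of 1.45 (SE 0.35, adjusted p = 0.310 in limma). Zfp445, which acts at imprinted regions together with ZFP57, was at 67.7 and 21.0 TPM against 93.3 and 95.2 TPM, a log2 difference of 1.29 (SE 0.59, adjusted p = 0.393 in limma). The controls of Zfp57 lay close together, whereas those of Zfp445 differed more than 2-fold.

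Zfp568, a repressor of a placental promoter of Igf2, measured 11.9 and 8.90 TPM in the controls, against 21.9 and 22.96 TPM in the KO-labelled libraries (log2 difference 1.05, SE 0.31). Zfp809, which recognises the primer binding site of murine leukaemia viruses, was at 24.9 and 17.2 TPM against 25.7 and 25.4 TPM. Zfp932, a repressor of retroviral elements, was at 24.3 and 8.83 TPM against 25.3 and 27.7 TPM. Zfp961 was at 18.8 and 14.8 TPM against 25.9 and 24.1 TPM. Zfp809 and Zfp932 lay only slightly above control 1, and the difference of Zfp809 turned to -0.03 under median-ratio scaling.

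Partners of chromatin repressor complexes had 12 members of 17 listed genes and a median log2 difference of 0.55. Of these, 7 lay above both controls (58.3%, against 62.4% of members and 38.6% of all genes tested) and 0 below. Zfp518a, a partner of the H3K9 methyltransferase G9a and of Polycomb proteins, measured 48.7 and 36.9 TPM in the controls, against 99.96 and 93.5 TPM in the KO-labelled libraries (log2 difference 1.17, SE 0.23, adjusted p = 0.310 in limma). Zfp518b, its paralog, was at 5.07 and 5.76 TPM against 10.3 and 10.7 TPM. Zfp644, which joins G9a and GLP, was at 39.0 and 20.6 TPM against 53.5 and 55.2 TPM. All 3 G9a partners thus had groups that did not overlap.

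Zfp638, whose human counterpart takes part in silencing of retroviral DNA, measured 80.8 and 44.4 TPM in the controls, against 115 and 120 TPM in the KO-labelled libraries. Zfp687, Zfp592 and Zfp532 encode proteins of a module around ZMYND8. Zfp687 was at 52.3 and 57.7 TPM against 85.6 and 77.2 TPM, and Zfp532 at 7.86 and 5.01 TPM against 13.7 and 11.7 TPM. Zfp592 was at 32.1 and 13.9 TPM against 29.7 and 30.8 TPM, with groups that overlapped, so the 3 genes of the module did not share one pattern. Zfp217, a partner of CoREST, was at 65.5 and 31.0 TPM against 69.9 and 61.7 TPM, and Zfp512 at 35.0 and 24.3 TPM against 40.1 and 46.7 TPM. Zfp410, an activator of the remodeller gene Chd4, was at 37.7 and 57.9 TPM against 56.4 and 52.7 TPM. Zfp219 had a log2 difference of 0.33 and Zfp296 of -0.04, both with overlapping groups.

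All 7 members among the promoter-binding factors (8 listed) lay above both controls, with a median log2 difference of 0.54. The share above both controls was 62.4% over members and 38.6% over all genes tested. Zfp281, a factor of pluripotent cells that binds GC-rich promoters, measured 30.5 and 22.2 TPM in the controls, against 51.0 and 50.6 TPM in the KO-labelled libraries (log2 difference 0.94, SE 0.26). Zfp711, an X-linked gene whose product brings the demethylase PHF8 to promoters, was at 14.9 and 15.3 TPM against 32.3 and 24.8 TPM (log2 difference 0.86, SE 0.28, adjusted p = 0.324 in limma). Zfp148 was at 13.7 and 8.85 TPM against 20.3 and 17.4 TPM. Zfp335, a partner of H3K4 methyltransferases, was at 19.4 and 15.6 TPM against 25.3 and 25.2 TPM. These 4 differences were wider than the gap between the controls.

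In the other 3, the controls were further apart than the groups. Zfp143, an activator of snRNA and housekeeping promoters, measured 15.6 and 10.3 TPM in the controls, against 16.03 and 16.6 TPM in the KO-labelled libraries. Zfp131 was at 74.1 and 45.3 TPM against 83.7 and 85.9 TPM, and Zfp384 at 68.6 and 49.2 TPM against 73.1 and 72.2 TPM. The difference of Zfp384 turned to -0.01 under median-ratio scaling, and that of Zfp148 to -0.00072 under length correction.

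Factors of RNA, ribosomes, ubiquitin and SUMO are zinc finger proteins that mostly act outside of DNA binding. They had 12 members of 12 and a median log2 difference of 0.43. Of these, 7 lay above both controls (58.3%, against 62.4% of members and 38.6% of all genes tested) and 0 below. Zfp207, a partner of the checkpoint protein BUB3 on kinetochores and the member with the highest level, measured 200 and 175 TPM in the controls, against 268 and 270 TPM in the KO-labelled libraries (log2 difference 0.52, SE 0.18, adjusted p = 0.335 in limma). Zfp598, the ubiquitin ligase of collided ribosomes, was at 76.3 and 64.4 TPM against 115 and 126 TPM (log2 difference 0.77, SE 0.20). Zfp106, an RNA-binding protein, was at 39.6 and 19.3 TPM against 58.2 and 59.3 TPM. Zfp326, which links RNA polymerase II to splicing, was at 62.5 and 33.2 TPM against 90.5 and 92.6 TPM. In these 4 genes the groups did not overlap.

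Zfp451, a SUMO ligase, measured 51.0 and 34.8 TPM in the controls, against 71.4 and 65.4 TPM in the KO-labelled libraries, and Zfp473, a factor of histone mRNA processing, was at 9.29 and 11.3 TPM against 14.7 and 13.9 TPM. Zfp91, a ubiquitin ligase, was at 147 and 82.7 TPM against 144 and 145 TPM. Zfp346, which binds double-stranded RNA, was at 62.8 and 38.0 TPM against 62.1 and 61.7 TPM. For these last 2 genes, control 1 was as high as the KO-labelled libraries and control 2 alone was low. Zfp622, a ribosome assembly factor, was at 34.7 and 60.8 TPM against 63.7 and 59.7 TPM, and Zfp593, another one, at 17.5 and 26.8 TPM against 16.2 and 18.0 TPM. Zfp385a was at 110 and 72.9 TPM against 79.9 and 67.1 TPM. Zfp830 had a log2 difference of 0.24 with groups that did not overlap.

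For the germ cell and stem cell genes, the direction depended on the control. All 6 listed genes were members, and 1 lay above both controls (16.7%, against 38.6% of all genes tested). Their median log2 difference was 0.26, close to the 0.28 of all genes tested. Against control 1 alone, the median was -0.42 and -0.27 for KO-labelled libraries 1 and 2, and against control 2 it was 0.74 and 0.85. Zfp42 (Rex1), a gene of stem cells and spermatocytes, measured 41.0 and 23.7 TPM in the controls, against 40.7 and 41.5 TPM in the KO-labelled libraries. Zfp35, a gene of pachytene spermatocytes, was at 124 and 66.1 TPM against 64.2 and 74.9 TPM. Zfp37, expressed in the testis, was at 19.7 and 6.07 TPM against 10.7 and 17.7 TPM. For all 3, the KO-labelled libraries lay within or close to the range of the controls.

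Zfp39 measured 35.3 and 13.7 TPM in the controls, against 27.7 and 26.6 TPM in the KO-labelled libraries, and Zfp318, a nuclear protein abundant in the testis, at 187 and 74.0 TPM against 132 and 143 TPM. Zfp628 was at 10.7 and 9.07 TPM against 11.2 and 12.4 TPM and was the 1 gene of the list above both controls. The control gap of this list was wide, with a median log2 difference of 1.10 between controls 1 and 2. The differences of Zfp37, Zfp39, Zfp318 and Zfp628 turned negative under median-ratio scaling and under length correction.

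**Figure D4:**
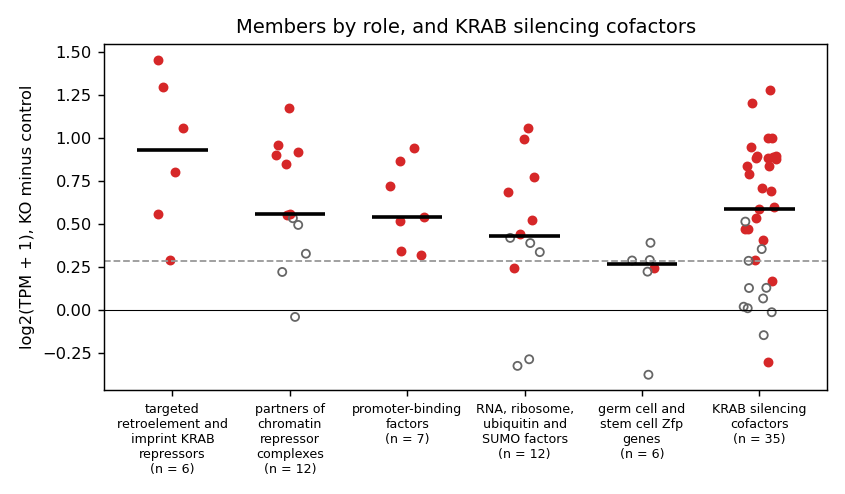
Difference in log2(TPM + 1) between the KO-labelled libraries and the controls for members of 5 role lists and for KRAB silencing cofactors (1 point per gene; filled red, groups do not overlap; open, groups overlap; bar, median; dashed line, median of all genes tested, 0.28). The medians run from 0.93 for the KRAB repressors with known targets to 0.26 for the germ cell and stem cell genes.

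Of the other members with high levels, Zfp664 measured 130 and 55.6 TPM in the controls, against 126 and 130 TPM in the KO-labelled libraries, and Zfp654 at 102 and 44.7 TPM against 112 and 122 TPM. Zfp523 was at 94.0 and 95.4 TPM against 115 and 125 TPM, with controls close together and a log2 difference of 0.34. By level, the medians of members ran from 0.45 to 0.55. The 67 members with a mean of 5 to under 10 TPM had a median log2 difference of 0.47, beside 0.36 for all genes in that range. The 84 members of 10 to under 20 TPM had 0.55 beside 0.41, the 55 of 20 to under 50 TPM had 0.54 beside 0.40, and the 36 of 50 TPM or more had 0.45 beside 0.20. The 79 Zfp-named genes under the limit had a median of 0.34. Of these, 29 lay above both controls (36.7%, against 38.6% of all genes tested) and 1 below (1.27%, against 12.1%). Their share above both controls was thus not higher than that of all genes tested.

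A KRAB box was searched for in the coding sequences of the GENCODE annotation, and 110 members had a match, 127 had none and 5 had no coding sequence that could be read. The search was for a pattern of letters, so a member without a match may still have a KRAB box. Members with a match had a median log2 difference of 0.60, with 79 above both controls (71.8%) and 4 below (3.64%). Members without one had 0.42, with 70 above (55.1%) and 9 below (7.09%). Of all genes tested, 38.6% lay above and 12.1% below. At an unadjusted p under 0.05 in limma, however, 12 members with a match were higher (10.9%, beside 10.7% of all genes tested) and 24 without (18.9%). The gap between the controls was a median of 0.51 with a match and 0.44 without. The order of the medians was kept under length correction, at 0.23 and 0.08. No test was made of the difference between these classes, whose genes share libraries and sequence.

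Finger number was counted from the longest coding sequence and had a median of 10, up to 36 in Zfp142. The 23 members with 0 to 2 fingers had a median log2 difference of 0.48, the 34 with 3 to 5 had 0.41 and the 58 with 6 to 9 had 0.42. The 73 members with 10 to 13 fingers had 0.54 and the 49 with 14 or more had 0.62. Of these 49, 37 lay above both controls (75.5%, against 62.4% of members and 38.6% of all genes tested). Transcript length moved with the differences. The 81 shortest members, with a median length of 2480 bases, had a median difference of 0.39, the 79 of middle length (3621 bases) had 0.48 and the 81 longest (6163 bases) had 0.68. The gap between the controls also widened with length, from 0.39 over 0.51 to 0.65. The median length of members was 3621 bases and that of all genes tested 3172 bases, and the values after length correction are given above.

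The genes lay on every autosome and on chromosome X, with 60 members on chromosome 7 and 27 on chromosome 17. With neighbours no more than 1 Mb apart, 94 members fell into 13 clusters of at least 5. The cluster counts below stand beside 62.4% of members and 38.6% of all genes tested above both controls. The shares below both controls were 5.37% and 12.1%. The largest, of 11 members at chr7:29768552-30169775 (mm10), holds Zfp568 and had a median log2 difference of 0.49, with 8 above both controls and 0 below. The cluster of 10 KRAB members at chr17:21008941-22456689 had a median of 0.75, and Zfp820, the lowest member, lies in it beside 6 genes above both controls. The cluster of 9 at chr6:47815536-48445992 had a median of 0.40 with 7 above and 1 below, the latter being Zfp956. Zfp820 and Zfp956 thus lay among neighbours on the higher side. Zfp428, also below both controls, lay instead in a chromosome 7 cluster with a median of -0.04.

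All 6 members at chr9:19622038-20605404 lay above both controls (median 0.64), as did all 5 at chr8:69209018-69774911 (median 0.84) and 6 of 7 at chr13:67490167-67729178 (median 0.44). In these 3 clusters every member had a KRAB match, and their small counts stand beside 62.4% of members and 38.6% of all genes tested. Of 8 members at chr7:24081877-25227876, in contrast, 1 lay above and 2 below both controls, and the median was -0.04. None of these had a match, although the pattern may miss KRAB boxes. The cluster of 6 at chr7:4915181-5053723, also without a match, had a median of 0.29 with 3 above and 1 below, and 6 members at chr7:6131489-7121476, 4 of them with a match, had 0.07 with 1 above and 1 below. Clustered paralogs resemble each other in sequence, and RSEM divides reads that fit several of them by estimate, so values of single members of a cluster are uncertain and are not independent of each other.

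**Figure D5:**
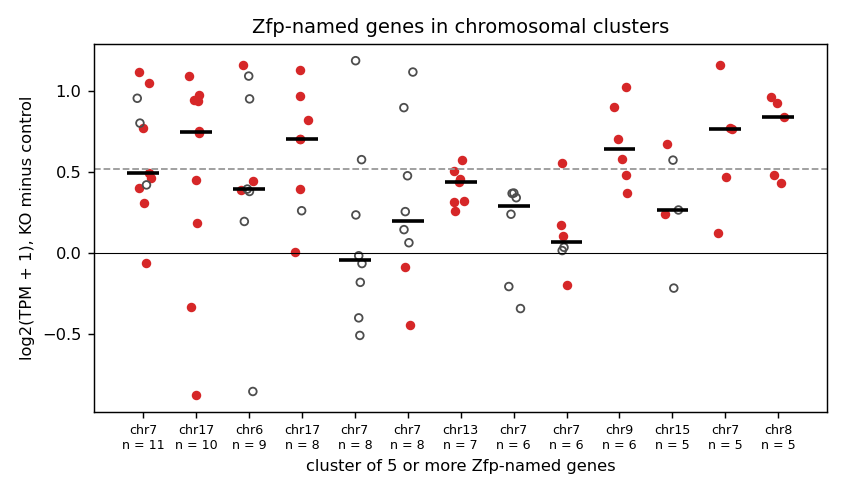
Difference in log2(TPM + 1) between the KO-labelled libraries and the controls for members of 13 chromosomal clusters of 5 or more Zfp-named genes (1 point per gene; filled red, KRAB match; open, no match or no coding sequence; bar, cluster median; dashed line, median of all 242 members, 0.52). Cluster medians run from 0.84 on chromosome 8 to -0.04 for a cluster without KRAB matches on chromosome 7.

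Besides Zfp711, 3 members were X-linked, a chromosome that is transcriptionally silenced in pachytene spermatocytes. Zfp280c measured 5.89 and 3.92 TPM in the controls, against 7.72 and 8.33 TPM in the KO-labelled libraries. Zfp275 was at 11.5 and 6.62 TPM against 13.1 and 11.2 TPM, and Zfp185 at 14.4 and 4.64 TPM against 5.79 and 6.63 TPM. Zfp711 and Zfp280c lay above both controls, and the other 2 had overlapping groups.

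The proteins through which KRAB zinc fingers silence were read beside the members. Of the listed cofactors 35 were tested, with a median log2 difference of 0.58, beside 0.28 for all genes tested. Of the 35, 24 lay above both controls (68.6%, against 38.6% of all genes tested) and 1 below (2.86%, against 12.1%). At an unadjusted p under 0.05 in limma, 13 of the 35 were higher, against 10.7% of all genes tested, and none passed the FDR. Trim28, the corepressor that KRAB boxes bind, measured 437 and 497 TPM in the controls, against 472 and 472 TPM in the KO-labelled libraries, within the range of the controls. Setdb1, the H3K9 methyltransferase it recruits, was at 116 and 96.3 TPM against 195 and 183 TPM (log2 difference 0.83, SE 0.19, adjusted p = 0.310 in limma). Setdb1 thus lay above both controls while Trim28 did not.

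Of the HP1 genes, Cbx1 measured 132 and 114 TPM in the controls, against 236 and 256 TPM in the KO-labelled libraries, and Cbx3 at 151 and 144 TPM against 263 and 286 TPM, whereas Cbx5, at 47.8 and 20.3 TPM against 43.3 and 46.7 TPM, overlapped. Ehmt1 (GLP), the partner of ZFP644, was at 19.2 and 17.5 TPM against 42.9 and 43.8 TPM (log2 difference 1.199, SE 0.23), and Ehmt2 (G9a) at 143 and 135 TPM against 160 and 151 TPM. Smarcad1, a remodeller bound to TRIM28, was at 19.3 and 16.99 TPM against 48.0 and 42.8 TPM (log2 difference 1.28, SE 0.24), the largest of the list. Mbd3, a NuRD subunit, was at 219 and 242 TPM against 183 and 190 TPM and was the 1 cofactor below both controls. Of the 3 HP1 genes, 2 lay above both controls, as did both genes of the G9a and GLP pair. The log2 difference of Ehmt2 was 0.16 (SE 0.17), however, below the median of 0.28 over all genes tested.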

How the data were processed

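RNA of GFP-positive testis cells at postnatal day 18 was measured in 2 Zfp541+/- libraries and 2 libraries labelled Zfp541 KO. Per the submitters' processing notes and the study's methods, the authors trimmed single-end 75 nt reads (Trim Galore 0.5.0, cutadapt 1.16), aligned them to mm10 with STAR 2.6.0a, estimated expression with RSEM 1.3.1 and deposited TPM per gene. TPM keeps no depth, so counting error is unknown.

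The members and lists were chosen with earlier results of these data known. A gene was tested where its 4 libraries averaged 1 TPM or more. log2(TPM + 1) was fitted by genotype with limma 3.58.1 (R 4.3.3), two-sided, with a trended prior variance, and p-values were adjusted by the Benjamini-Hochberg method. The fit was tested on simulated data with the same spread in both groups, which the real groups did not have. A lack of genes past the FDR therefore does not show that no gene differs. Named members were the 10 with the highest level, the 10 with the largest difference in each direction among those with groups that did not overlap, members of the role lists, X-linked members, those next to the level limit and the 5 with the widest control gap. Other genes are cluster or cofactor examples. KRAB matches and fingers came from translated GENCODE M21 coding sequences, since no RefSeq protein table was used here as planned; the KRAB pattern was widened after protein sequences, not expression, were read. Lengths were found for 241 members and 95.9% of genes tested. Promoter windows were RefSeq's. Alternatives covered pseudocount, filter, scaling, trend, block, length and leaving out each library.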

Additional observations from a re-analysis of the deposited data

How the results depend on the processing

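Of the results on members, the count past an FDR of 0.05 stayed at 0 in both directions in limma under every alternative that kept all 4 libraries, and the median difference of members stayed positive under every alternative. With a pseudocount of 0.1 or 5, 44 and 6 members were at least 2-fold higher. The 2-fold counts of this section have no share of all genes beside them, so they describe the settings and not the members. Without the filter, no member (0) was lower at an unadjusted p under 0.05, as without the trend, 1 gene that is no member passed the FDR in each direction, and the median of all genes was 0.018. Median-ratio scaling gave 12 members higher (4.96%, all genes 4.18%) and 3 lower (1.24%, all genes 7.56%) at that p, 4 and 2 at least 2-fold higher and lower, 30 below both controls, and medians of 0.20 for members, 0.12 without a KRAB match, 0.25 for cofactors and -0.015 for all genes, and turned Zfp318 (-0.11), Zfp809 (-0.033), Zfp410 (-0.11), Zfp384 (-0.014), Zfp830 (-0.080), Zfp39 (-0.032), Zfp37 (-0.017) and Zfp628 (-0.068). Quantile normalization gave 21 (8.68%, all genes 6.96%) and 2 (0.826%, all genes 6.95%) at that p, 5 and 2 at 2-fold, 24 below both controls and 0.077 for all genes, and turned Zfp809 (-0.00069), Zfp830 (-0.043), Zfp39 (-0.038) and Zfp37 (-0.029). Length correction gave 14 higher at that p (5.79%, all genes 4.42%), 5 and 2 at 2-fold, 97 above and 37 below both controls, and medians of 0.17 for members, 0.23 with and 0.080 without a KRAB match, 0.22 for cofactors and 0.022 for all genes, and turned Zfp318 (-0.58), Zfp91 (-0.12), Zfp523 (-0.078), Zfp592 (-0.13), Zfp148 (-0.00072), Zfp451 (-0.090), Zfp473 (-0.26), Zfp39 (-0.052), Zfp37 (-0.017), Zfp628 (-0.066), Zfp729a (-0.39) and Zfp275 (-0.15). The cause was not tested.

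Leaving out each library in turn gave 0 to 148 members higher and 0 to 9 lower past the FDR, 0 to 171 and 0 to 12 at an unadjusted p under 0.05 (all genes: 0% to 38.7% and 0% to 12.9% past the FDR, 0.407% to 45.4% and 0.854% to 19.3% at that p), 12 to 85 and 0 to 5 at 2-fold, 159 to 209 above and 16 to 62 below the controls, and medians of 0.27 to 0.79 for members, 0.32 to 0.86 with and 0.20 to 0.77 without a KRAB match, 0.38 to 0.73 for cofactors and 0.15 to 0.44 for all genes. The Zfp541 difference ran from 0.35 to 0.98 and passed the FDR without control 1. Of all genes tested, 42.9% to 65.8% lay above and 15.6% to 36.0% below the controls when a library was left out. With all 4 libraries these shares were 38.6% and 12.1%. The member counts above and below thus rose partly because fewer libraries had to be separated, as the shares of all genes rose too. Members passed the FDR only where a control was left out, in a fit that assumes the lone control to vary like the other group. Named members whose direction turned in at least 1 of these fits ran from -0.58 to 0.0072 for Zfp385a, -0.83 to 0.068 for Zfp35, -0.085 to 0.52 for Zfp410, -0.31 to 0.18 for Zfp14, -1.36 to 0.83 for Zfp608, -1.10 to 0.35 for Zfp185, -0.44 to 0.88 for Zfp318, -0.025 to 0.80 for Zfp91, -0.023 to 1.19 for Zfp664, -0.083 to 1.07 for Zfp592, -0.23 to 0.14 for Zfp296, -0.021 to 0.69 for Zfp346, -0.37 to 0.94 for Zfp39, -0.49 to 1.06 for Zfp37, -0.13 to 1.54 for Zfp955b and -0.19 to 1.43 for Zfp950.

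Replicate numbers share a number and no stated litter, and deviations of same-numbered libraries correlated at -0.16 over all genes and -0.27 over members. With replicate number as a block, 13 members were higher (5.37%, all genes 4.52%) and 0 lower (all genes 3.11%) at an unadjusted p under 0.05, and 0 passed the FDR. Crossed numbers, added after seeing the data, gave 21 members higher at that p (8.68%, all genes 8.68%), with 7 genes higher and 80 lower past the FDR, none of them members. As TPM keeps no depth, how far sequencing limits the low members is unknown.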
